A study of Mus musculus with 6 samples.

Results

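The ADAM, ADAMTS and ADAMTSL genes were examined in RNA-seq libraries of mouse bone marrow mesenchymal stem cells (BMMSCs). Members were taken by name alone, as every symbol made of Adam, Adamts or Adamtsl, a number and at most an a or a b, which gave 57 of 36870 distinct symbols. Of these, 33 were ADAM, 19 ADAMTS and 5 ADAMTSL genes. The cells were adherent marrow cells of C57BL/6 mice, at passage 2 by the sample labels and passage 1 by the methods, and the age of the mice is not given for them. The 3 control libraries came from cells given a non-targeting siRNA by the labels, although the methods for sequencing call these cells vehicle-treated. The other 3 libraries came from cells given siRNAs against Tet1 and Tet2, enzymes that oxidise methylated cytosine in DNA. The question was how the levels of these protease genes differed when both Tet genes were targeted. No source says that the libraries came from separate cultures or animals, so the p-values measure the spread between these samples, which may be technical.

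ADAM proteins are anchored in the cell membrane, and those with an intact zinc-binding site act as sheddases, which cut the outer parts of cytokines, growth factors, receptors and adhesion molecules from the cell surface. ADAMTS proteins are secreted, bind the extracellular matrix through thrombospondin motifs, and cut proteoglycans, procollagens and other matrix proteins. ADAMTSL proteins share the matrix-binding modules but lack the protease domain, and several of them bind fibrillin. In marrow and skeleton the family is known from shedding on myeloid and stromal cells and from the turnover of matrix that fibroblastic, bone and cartilage cells lay down.

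Levels are given in RPKM, reads scaled by the length of the gene and the mapped reads of the library. From the steps between low values, the depth was estimated at 37600000, 32900000 and 32400000 reads in the control libraries and 38300000, 38500000 and 35400000 reads in the siRNA libraries, with 53.0% to 58.8% of low values within 0.1 of a whole read. Differences between groups are log2 fold changes of RPKM + 1, a scale that understates the change of genes with low RPKM, and ratios of group mean RPKM are therefore given as well. Each test was limma over the 13266 genes whose 6 libraries averaged 0.1 RPKM or more, with Benjamini-Hochberg adjustment over all of them, and a gene was called when its adjusted p was under 0.05. For a single gene, an exact two-sided permutation test of 3 against 3 libraries cannot give a p under 0.1, and none was used.

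The targeted genes were read first. Tet2 stood at 2.57, 4.08 and 3.71 RPKM with the control siRNA and at 0.358, 0.238 and 0.202 RPKM after Tet1/Tet2 siRNA, and the groups did not overlap (log2 fold change -1.80, SE 0.13, adjusted p = 2.88e-05 from limma). Tet1 was below the minimum for testing, with 0.032, 0.098 and 0.05 RPKM against 0.001, 0.01 and 0.001 RPKM, where 0.001 is the lowest value listed. No siRNA was aimed at Tet3, which stood at 7.03 ± 1.55 RPKM among controls against 7.66 ± 0.767 RPKM under siRNA (SD, n = 3), with overlapping groups (adjusted p = 0.508 from limma).

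The labelled cell type was compared with marker genes, on a background of 29.8% lower and 14.7% higher among all 13266 genes tested. Of 15 stromal markers 12 were tested, 10 were lower and 0 were higher after Tet1/Tet2 siRNA, and the median log2 fold change was -2.40 (limma; 0 were higher also at an unadjusted p under 0.05). The summed stromal level was 1217, 1134 and 1642 RPKM among controls against 146, 201 and 295 RPKM under siRNA, led by Col1a1 at 488 ± 144 RPKM among controls against 72.1 ± 28.5 RPKM under siRNA (SD, n = 3). Thy1, Lepr and Lum, which also mark stromal cells, were under the minimum for testing. Of 12 macrophage markers, all tested, 9 were higher and 1, Fcgr1, was lower (named after its value was seen). Their summed level was 8238, 7793 and 6234 RPKM among controls against 17248, 15965 and 14112 RPKM under siRNA, led by Lyz2 at 4439 ± 783 RPKM among controls against 11321 ± 1444 RPKM under siRNA (SD, n = 3). The median log2 fold change of the macrophage markers was 0.42, and without Lyz2 the sum of the other 11 was 1.49-fold higher by group means. Macrophage transcripts were thus abundant in every library beside stromal ones, and the cells are called BMMSCs below only after their label. In bulk RNA, fewer cells of a type and less RNA per cell cannot be told apart.

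Summed markers of other cell types were far below the stromal and macrophage sums. Under siRNA the adipocyte and neutrophil sums, 14.9 and 12.8 RPKM, were however near the mean summed level of the ADAMTS genes, 14.2 RPKM. The summed level of 6 neutrophil markers went from 3.42 to 12.8 RPKM, with S100a8 the most abundant and S100a9 at 0.001 RPKM in every library, and of the 2 tested 1 was higher and 1, Camp, was lower and passed the minimum only through the control group (named after its values were seen). For 4 B cell markers the sum went from 0.594 to 1.18 RPKM, mostly Cd79b, the single gene tested, which was higher. For 5 T cell markers it went from 2.58 to 8.08 RPKM, nearly all Cd4, the 1 gene tested and higher, while Cd3g stood at 0.001 RPKM in every library. The 6 endothelial markers, with Vwf the most abundant, summed to 4.58 and 7.51 RPKM, and of 5 tested 2 were lower and 2 higher. The 4 adipocyte markers, led by Adipoq, summed to 5.59 and 14.9 RPKM, and all 3 tested were higher. No erythroid marker reached the minimum, and Alas2 had the highest mean of them over all 6 libraries, though not in the control group alone.

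Across the family, 27 of the 57 members reached the minimum and were tested. After Tet1/Tet2 siRNA 16 were lower, 5 were higher and 6 were not called, against 29.8% lower and 14.7% higher among all 13266 genes tested. By an unadjusted p under 0.05 from limma and over 2-fold on the log2(RPKM + 1) scale, 7 members were lower and 0 higher. Of all genes, 5.63% were lower and 0.95% higher by the same rule. At an unadjusted p under 0.05 with no fold minimum, limma gave 17 lower and 5 higher members. The share of all genes without a fold minimum was not taken, so these 2 counts have no background. Adam5, Adamts7 and Adamtsl1 had a mean of at least 0.1 RPKM in the control group alone, so they passed the minimum through the group in which they were high.

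The counts by class can be set beside the 29.8% lower and 14.7% higher of all genes. Of 13 ADAM genes tested 4 (30.8%) were lower, 4 (30.8%) were higher and 5 were not called, with a median log2 fold change of -0.075 that lay beside the median of all genes, -0.087. Of 10 ADAMTS genes tested 9 (90.0%) were lower, 0 were higher and 1 was not called, with a median of -0.88 (limma; 0 were higher also at an unadjusted p under 0.05). Of 4 ADAMTSL genes tested 3 (75.0%) were lower and 1 (25.0%) was higher, with a median of -0.49. The lower ADAMTS genes include Adamts7 and the lower ADAMTSL genes include Adamtsl1, which passed the minimum only through the control group. The counts, shares and medians were not taken again without them. They describe the members that were tested, and the difference between the classes was not tested.

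The scaling of the libraries bears on small changes. All genes together had a median log2 fold change of -0.087 with RPKM as deposited, -0.13 with each library brought to the mean of their sums, 0.003 with median-ratio scaling and 0.055 after quantile normalization. Over all genes the split of 3952 lower and 1953 higher genes became 4359 and 1526, 2960 and 2855, and 2627 and 3607 in the same order. Relative to the median of all genes, the ADAMTS median was -0.80 as deposited and -0.78, -0.82 and -0.72 under those scalings. The ADAM median, taken the same way, was 0.011 as deposited and 0.035, -0.062 and -0.048, so its sign turned. With libraries brought to the same sum, 2 in place of 4 ADAM genes were higher and no ADAMTSL gene was (limma). Under each scaling 9 ADAMTS genes were lower, except for 8 after quantile normalization.

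The pseudocount bears on the size of the changes in members of low level. With 0.1 in place of 1, the log2 fold changes of 12 called members, 7 of them ADAMTS genes, grew by over 1.5 times, and none of the 12 lost its call. Among them Adamts5 went from -2.16 to -3.86 (adjusted p over all alternatives 4.54e-06 to 0.000528 from limma), Adamts12 from -1.40 to -2.36 (7.45e-06 to 0.00171) and Adamts6 from -0.89 to -1.95 (0.000151 to 0.00568). For Adamts4, Adamts7, Adamts9 and Adamts14 the value with 0.1 was -1.85, -1.69, -0.86 and -1.35, with adjusted p ranges of 0.000165 to 0.00232, 0.00127 to 0.0103, 0.00523 to 0.0888 and 7.83e-05 to 0.00702 from limma. Outside the ADAMTS genes it was -1.41 for Adam12, -1.87 for Adam33, 0.90 for Adam22, -2.18 for Adamtsl3 and -0.91 for Adamtsl1, with limma ranges of 9.53e-05 to 0.00566, 4.86e-05 to 0.00281, 0.000178 to 0.00921, 7.71e-05 to 0.000912 and 0.0137 to 0.156.

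**Figure D1:**
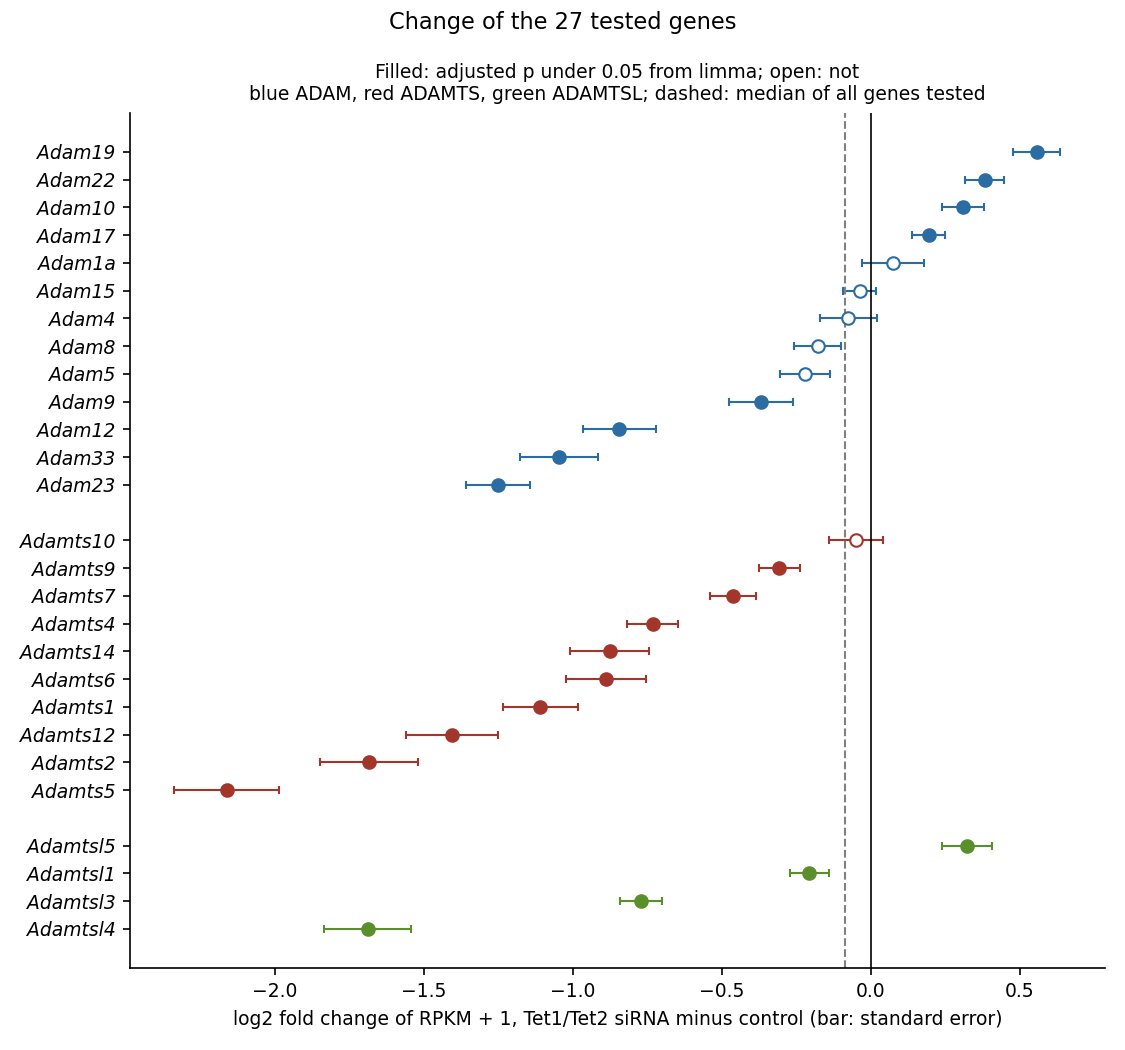
Log2 fold change of RPKM + 1 (Tet1/Tet2 siRNA minus control, 3 libraries each) on the horizontal axis for each of the 27 tested genes on the vertical axis, with bars for the standard error; filled points had an adjusted p under 0.05 from limma, and the dashed line is the median of all genes, -0.087. ADAM genes lie on both sides of 0, and 9 of 10 ADAMTS genes are filled and to the left, from -0.31 to -2.16, while Adamts10 is open and moved to the right of 0 after median-ratio scaling and quantile normalization.

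Among catalytic ADAMs, which include the main sheddases, 8 of 9 were tested, 3 (37.5%) were lower, 3 (37.5%) were higher and 2 were not called, next to 29.8% lower and 14.7% higher among all genes. Their summed level was 1187, 1149.7 and 1144 RPKM among controls against 1064, 1056 and 1053 RPKM under siRNA, most of it from a single gene. Adam8, a protease best known from macrophages and other leukocytes (chromosome 7, 139978932 to 139992562, - strand, GRCm38), was at 861, 812 and 776 RPKM among controls against 731, 729 and 704 RPKM under Tet1/Tet2 siRNA. Every siRNA library lay below every control library, but the difference did not pass the test (log2 fold change -0.18, SE 0.080, adjusted p = 0.105 from limma). It passed with libraries brought to the same sum (adjusted p = 0.0059), after quantile normalization (adjusted p = 0.023) and without control replicate 3 (adjusted p = 0.0207), within a limma range of 0.0059 to 0.653 over 17 alternatives. Without Adam8, all other ADAM genes summed to 331, 342 and 373 RPKM among controls against 336, 330.0 and 352 RPKM under siRNA, and these groups overlapped.

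Adam10, the sheddase that cuts Notch receptors and cadherins (chromosome 9, 70678997 to 70780229, + strand), was at 54.9, 60.9 and 62.9 RPKM among controls against 73.7, 70.2 and 78.2 RPKM under Tet1/Tet2 siRNA. The lowest siRNA library was above the highest control library, and the gene rose 1.24-fold by group means (log2 fold change 0.31, SE 0.072, adjusted p = 0.00878 from limma), a call that was lost with libraries brought to the same sum (adjusted p = 0.0564; range over alternatives 0.0013 to 0.0564). Adam17, which releases tumour necrosis factor and is also called TACE (chromosome 12, 21323509 to 21373632, - strand), was at 39.0, 41.1 and 40.6 RPKM among controls against 47.1, 44.5 and 46.9 RPKM under Tet1/Tet2 siRNA. The groups again did not overlap, and the rise was 1.15-fold by group means (log2 fold change 0.20, SE 0.056, adjusted p = 0.023 from limma). Of the increases it was the smallest and the least stable: limma gave an adjusted p of 0.0612 without control replicate 1, 0.0554 without control replicate 2, 0.09 without siRNA replicate 1, 0.0709 without siRNA replicate 3 and 0.16 with libraries brought to the same sum (range 0.00292 to 0.16). Adam19, or meltrin beta, a sheddase of neuregulins known from heart development (chromosome 11, 46055992 to 46147343, + strand), was at 6.65, 6.64 and 7.09 RPKM among controls against 10.7, 9.77 and 10.9 RPKM under Tet1/Tet2 siRNA. Its groups did not overlap (1.54-fold by group means, log2 fold change 0.56, SE 0.079, adjusted p = 0.000715 from limma), and was called in all 17 alternatives.

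Adam15, or metargidin, which carries an integrin-binding motif in its disintegrin domain (chromosome 3, 89338542 to 89349996, - strand), was at 128, 121 and 128 RPKM among controls against 122, 124 and 121 RPKM under Tet1/Tet2 siRNA. The groups overlapped and differed by less than their spread (log2 fold change -0.037, SE 0.055, adjusted p = 0.616 from limma), and the sign of the difference turned with median-ratio scaling and quantile normalization. Adam9, a broadly expressed member also called meltrin gamma (chromosome 8, 24949611 to 25016927, - strand), was at 93.7, 104 and 125 RPKM among controls against 79.1, 78.5 and 89.9 RPKM under Tet1/Tet2 siRNA. Control replicate 3 was the highest library and the siRNA libraries all lay below the controls, with a ratio of group means of 0.768 (log2 fold change -0.37, SE 0.11, adjusted p = 0.0228 from limma). The call was lost without control replicate 2 (adjusted p = 0.0545 from limma), without siRNA replicate 1 (0.0783) or 2 (0.0861), with median-ratio scaling (0.0737) and after quantile normalization (0.12), in a range of 0.00196 to 0.12.

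The remaining catalytic ADAMs were lower by a larger factor and from a lower level. Adam12, or meltrin alpha, known from muscle and mesenchymal cells and able to cut insulin-like growth factor binding proteins (chromosome 7, 133883199 to 134232146, - strand), was at 1.86, 2.13 and 2.48 RPKM among controls against 0.568, 0.672 and 1.05 RPKM under Tet1/Tet2 siRNA. Libraries of a group differed less than the groups did, and the mean fell 2.82-fold (log2 fold change -0.84, SE 0.12, adjusted p = 0.000789 from limma). Adam33, expressed in fibroblasts and smooth muscle and studied in asthma (chromosome 2, 131050591 to 131063814, - strand), was at 1.98, 2.13 and 2.49 RPKM among controls against 0.396, 0.401 and 0.888 RPKM under Tet1/Tet2 siRNA. Replicate 3 was the highest library of each group, with every siRNA library below every control, and the mean fell 3.92-fold (log2 fold change -1.05, SE 0.13, adjusted p = 0.000367 from limma). Adam28, a lymphocyte member, was the catalytic ADAM not tested, at 0.0263 ± 0.0439 RPKM among controls against 0.0103 ± 0.0101 RPKM under siRNA (SD, n = 3).

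Adam23, Adam22 and Adam11 have lost the catalytic site and are known in brain as receptors of LGI proteins. Adam23 (chromosome 1, 63445891 to 63596276, + strand) was at 3.61, 3.41 and 3.61 RPKM among controls against 0.687, 1.18 and 0.893 RPKM under Tet1/Tet2 siRNA. No siRNA library came near the control range, and the mean fell 3.85-fold (log2 fold change -1.25, SE 0.11, adjusted p = 5.41e-05 from limma). Adam22 moved the other way from a low level, with 0.387 ± 0.0267 RPKM among controls against 0.809 ± 0.0658 RPKM under siRNA (SD, n = 3) and no overlap (2.09-fold by group means, log2 fold change 0.38, SE 0.065, adjusted p = 0.00193 from limma). Adam11 was not tested, with at most 0.143 RPKM in any control and 0.012 RPKM under siRNA.

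Members known from testis or epididymis made up 21 of the 33 ADAM genes, and 18 of them were not tested. The 3 tested were not called by limma, where 29.8% of all genes were lower and 14.7% higher. Of these 3, 1, Adam5, had an unadjusted p under 0.05 from limma. Adam5 was at 0.089, 0.156 and 0.354 RPKM among controls against 0.029, 0.019 and 0.031 RPKM under Tet1/Tet2 siRNA, or about 9, 14 and 32 reads against 3, 2 and 3 reads by the depth estimate. Control replicate 3 was well above the next library, and the groups did not overlap (7.58-fold lower by means, log2 fold change -0.22, SE 0.084, adjusted p = 0.0657 from limma). It passed with pseudocounts of 0.1 (log2 fold change -1.15, adjusted p = 0.0269) and 0.01 (-2.34, adjusted p = 0.0163) and without control replicate 1 (adjusted p = 0.0299), in a limma range of 0.0163 to 0.152. Without control replicate 3 its mean was under the minimum, so it was not tested, and the ratio of means was 4.65-fold. Adam1a, at 0.258 ± 0.162 RPKM among controls against 0.320 ± 0.0965 RPKM under siRNA (SD, n = 3), and Adam4, at 0.167 ± 0.139 RPKM among controls against 0.104 ± 0.0710 RPKM under siRNA (SD, n = 3), overlapped between the groups (adjusted p = 0.592 and 0.554 from limma), and the sign of each turned when 1 control library was left out. Adam24, Adam26a, Adam26b, Adam29, Adam34, Adam6a and Adam6b stood at 0.001 RPKM in all 6 libraries.

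**Figure D2:**
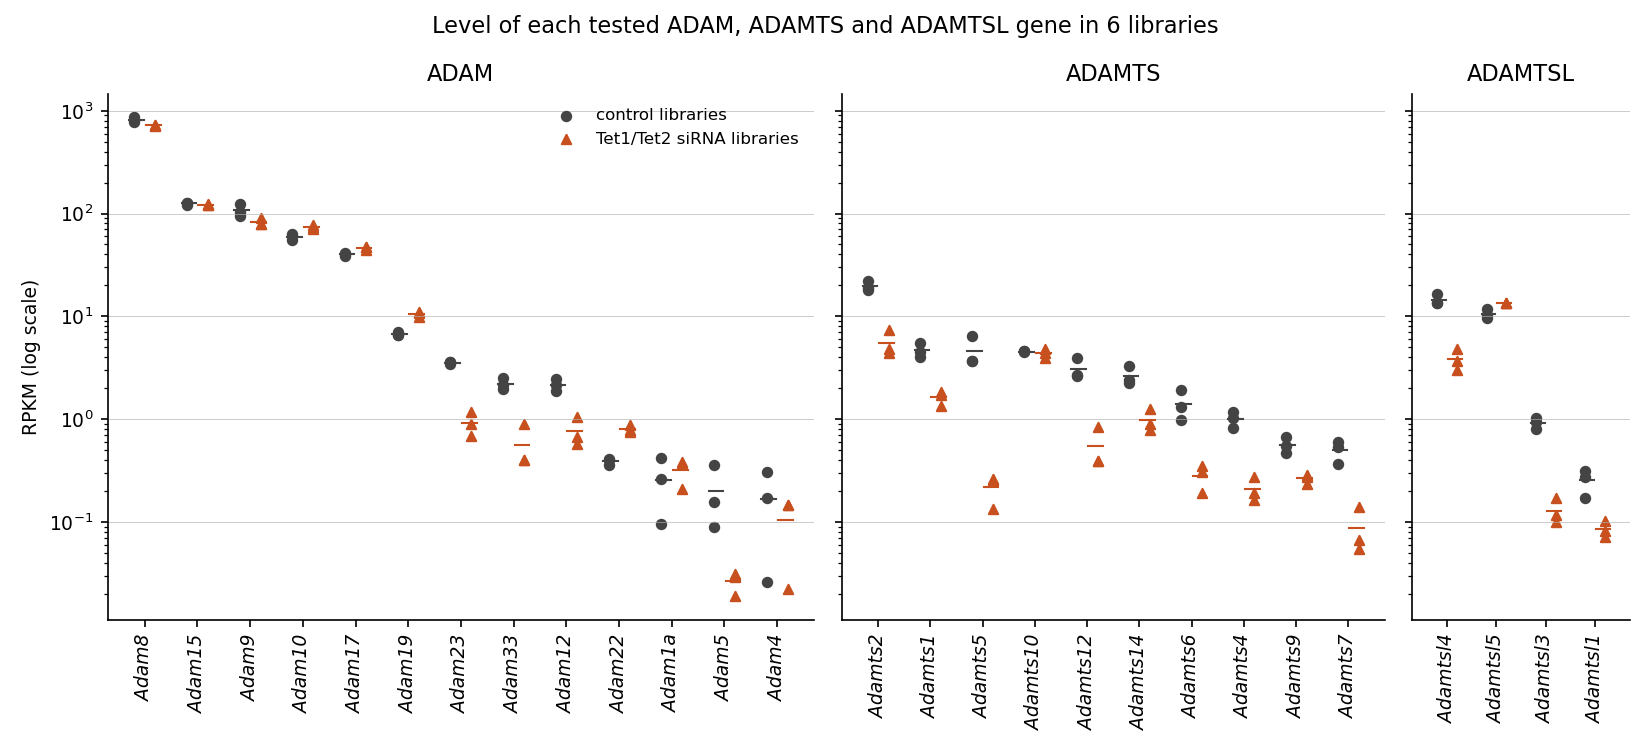
RPKM of each tested gene (vertical axis, log scale) in the 3 control libraries (circles) and the 3 Tet1/Tet2 siRNA libraries (triangles), by class and in order of the control mean, with lines for the group means. Adam8 lies highest, between 704 and 861 RPKM, no ADAMTS gene is above 22.3 RPKM, and the groups of Adamts5 are the farthest apart.

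The ADAMTS genes stood far below the abundant ADAMs. Their summed level was 39.1, 38.8 and 50.5 RPKM among controls against 11.8, 13.3 and 17.5 RPKM under siRNA, 3.02-fold lower by group means. Of 7 proteoglycanases, which cut aggrecan and versican, 4 were tested and all 4 (100.0%) were lower, next to 29.8% of all genes. Adamts5, the main aggrecanase of mouse cartilage (chromosome 16, 85856173 to 85901828, - strand), was at 3.65, 3.67 and 6.41 RPKM among controls against 0.134, 0.257 and 0.26 RPKM under Tet1/Tet2 siRNA. Control replicate 3 was well above the other controls, and the siRNA libraries held about 55, 107 and 99 estimated reads against 1480, 1302 and 2240. The fall of 21.1-fold by group means was the largest of the members tested (log2 fold change -2.16, SE 0.17, adjusted p = 4.34e-05 from limma). Adamts1, which cuts versican and is needed for ovulation (chromosome 16, 85793827 to 85803113, - strand), was at 3.98, 4.51 and 5.54 RPKM among controls against 1.33, 1.71 and 1.83 RPKM under Tet1/Tet2 siRNA. Its groups were separate, at 2.88-fold lower by means (log2 fold change -1.11, SE 0.13, adjusted p = 0.000216 from limma). Adamts4, another aggrecanase (chromosome 1, 171250421 to 171260637, + strand), was at 1.04, 0.818 and 1.18 RPKM among controls against 0.162, 0.19 and 0.276 RPKM under Tet1/Tet2 siRNA. All 3 siRNA libraries were well under the lowest control, 4.83-fold lower by means (log2 fold change -0.73, SE 0.086, adjusted p = 0.000259 from limma). Adamts9, a versican-cutting member, fell from 0.566 ± 0.0996 to 0.265 ± 0.0267 RPKM (SD, n = 3), a call that was lost after quantile normalization (adjusted p = 0.00823, and 0.0888 after it, in a limma range of 0.00523 to 0.0888).

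The procollagen N-propeptidases remove the amino-terminal propeptide of fibrillar procollagens before fibrils form. Adamts2, the most abundant ADAMTS gene (chromosome 11, 50602084 to 50807573, + strand), was at 18.8, 18.0 and 22.3 RPKM among controls against 4.40, 4.84 and 7.39 RPKM under Tet1/Tet2 siRNA. The highest siRNA library, replicate 3, was far under the lowest control, and the mean fell 3.55-fold (log2 fold change -1.68, SE 0.16, adjusted p = 0.000105 from limma). Adamts14 (chromosome 10, 61197112 to 61273438, - strand) was at 2.27, 2.38 and 3.30 RPKM among controls against 0.79, 0.9 and 1.26 RPKM under Tet1/Tet2 siRNA. Replicate 3 was the highest library in both groups, and the groups stayed apart, 2.69-fold lower by means (log2 fold change -0.88, SE 0.13, adjusted p = 0.00105 from limma). Adamts3, the member that acts on type II procollagen and on a lymphatic growth factor, was not tested and had at most 0.038 RPKM in any library.

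Adamts12 and Adamts7 are known to cut cartilage oligomeric matrix protein. Adamts12 (chromosome 15, 11064790 to 11349231, + strand) was at 2.67, 2.65 and 3.93 RPKM among controls against 0.391, 0.393 and 0.841 RPKM under Tet1/Tet2 siRNA. Replicate 3 was again the highest in each group, the groups did not overlap, and the mean fell 5.69-fold (log2 fold change -1.40, SE 0.15, adjusted p = 0.000188 from limma). Adamts7 fell from 0.498 ± 0.118 to 0.087 ± 0.0464 RPKM (SD, n = 3), or about 120, 65 and 94 estimated reads to 11, 14 and 27 reads (adjusted p = 0.00172 from limma). Adamts7 passed the minimum only through the control group.

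Adamts6 and Adamts10 are associated with fibrillin microfibrils, and 1 of the 2 was called. Adamts6 (chromosome 13, 104287835 to 104496695, + strand) was at 0.981, 1.32 and 1.90 RPKM among controls against 0.189, 0.307 and 0.349 RPKM under Tet1/Tet2 siRNA. The control libraries spread widely, yet the lowest of them was above the highest siRNA library, 4.97-fold lower by means (log2 fold change -0.89, SE 0.13, adjusted p = 0.000983 from limma). Adamts10 (chromosome 17, 33524204 to 33553782, + strand) was at 4.54 ± 0.0851 RPKM among controls against 4.36 ± 0.418 RPKM under siRNA (SD, n = 3), with overlapping groups (adjusted p = 0.677 from limma). Whether these genes differed from each other in their change was not tested. Of the other ADAMTS genes, Adamts13, the enzyme that trims von Willebrand factor, was at 0.0283 and 0.0267 RPKM by group means, and Adamts8, Adamts15, Adamts16, Adamts17, Adamts18, Adamts19 and Adamts20 were also below the minimum.

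ADAMTSL genes summed to 24.9, 24.1 and 29.5 RPKM among controls against 16.6, 17.3 and 18.5 RPKM under siRNA. Adamtsl4, a fibrillin-binding protein linked in humans to displaced eye lenses (chromosome 3, 95676201 to 95687917, - strand), was at 13.6, 13.3 and 16.4 RPKM among controls against 2.99, 3.67 and 4.82 RPKM under Tet1/Tet2 siRNA. Replicate 3 was the highest library of each group, and the fall was 3.77-fold by means (log2 fold change -1.69, SE 0.15, adjusted p = 5.76e-05 from limma). Adamtsl5 (chromosome 10, 80339110 to 80348412, - strand), the only secreted member that was higher, was at 10.3, 9.65 and 11.8 RPKM among controls against 13.5, 13.4 and 13.4 RPKM under Tet1/Tet2 siRNA. The siRNA libraries were nearly equal and lay above every control (1.27-fold by means, log2 fold change 0.32, SE 0.083, adjusted p = 0.0138 from limma). The call was lost without control replicate 2 (adjusted p = 0.0583, leaving 0 ADAMTSL genes higher) and with libraries brought to the same sum (adjusted p = 0.0695), in a limma range of 0.00211 to 0.0717. Adamtsl3, or punctin-2, fell from 0.926 ± 0.111 to 0.128 ± 0.0365 RPKM (SD, n = 3), 7.24-fold by means (log2 fold change -0.77, SE 0.071, adjusted p = 7.72e-05 from limma). Adamtsl1, or punctin-1, fell from 0.254 ± 0.0753 to 0.0853 ± 0.0159 RPKM (SD, n = 3), about 81, 44 and 80 estimated reads to 24, 22 and 29 reads (adjusted p = 0.0328 from limma). That call was lost after quantile normalization (adjusted p = 0.156), without control replicate 1 (0.0813) or 3 (0.0783) and without siRNA replicate 1 (0.0886), 2 (0.0969) or 3 (0.0589), in a limma range of 0.0137 to 0.156. Adamtsl1 passed the minimum only through the control group. Adamtsl2 was not tested.

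The summed stromal and ADAMTS levels were both lower after Tet1/Tet2 siRNA. Within the control group, the libraries ordered by summed stromal level were replicates 2, 1 and 3, from low to high. The order by summed ADAMTS level was the same, but replicates 2 and 1 were nearly tied there, at 38.8 and 39.1 RPKM. Within the siRNA group, the stromal and ADAMTS orders each ran over replicates 1, 2 and 3. The ADAMTSL sums gave the same orders. Abundant genes weigh heavily in these sums. In control replicates 1, 2 and 3, Col1a1 was at 416, 394 and 655 RPKM and Adamts2 at 18.8, 18.0 and 22.3 RPKM. The order did not hold for every gene. The stromal marker Ly6a (named after its values were seen) was at 168, 156 and 133 RPKM there. The orders were not taken without the leading genes. The summed stromal level was 6.23-fold lower and the summed ADAMTS level 3.02-fold lower by group means, while the summed macrophage level was 2.13-fold higher with Lyz2 and 1.49-fold higher without it. The part of either marker list in the results for the proteases was not tested.

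**Figure D3:**
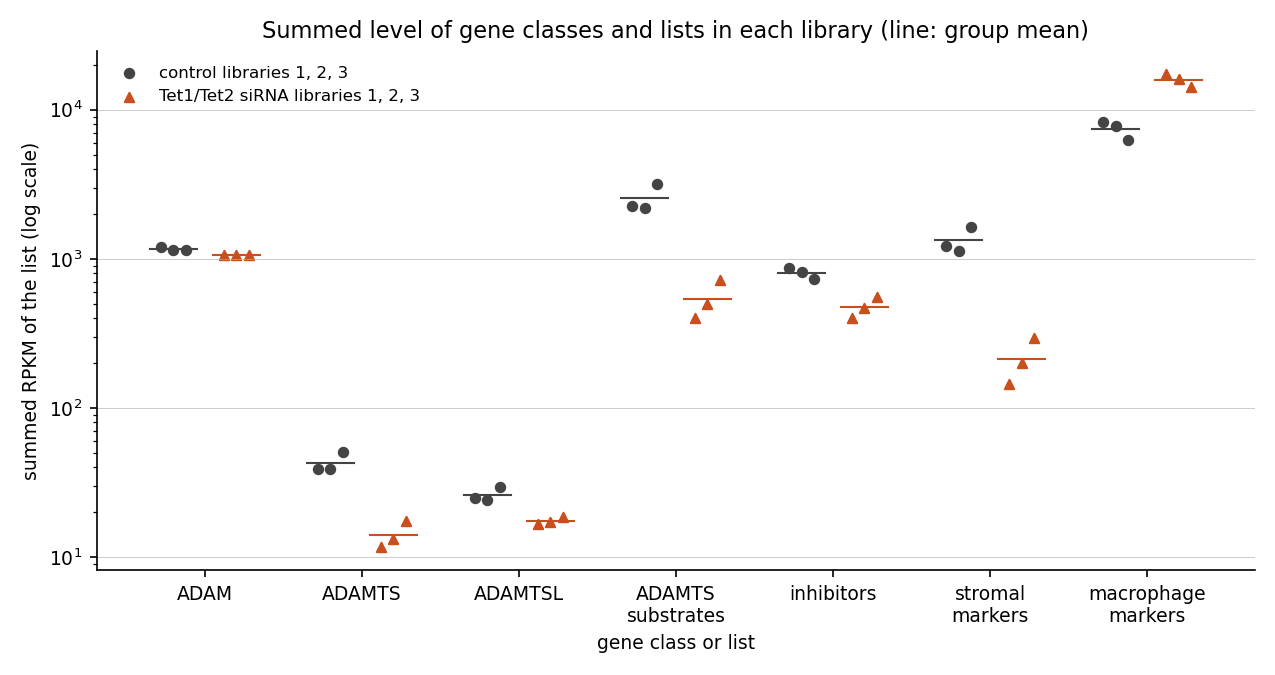
Summed RPKM (vertical axis, log scale) of 3 gene classes and 4 gene lists in control libraries (circles) and Tet1/Tet2 siRNA libraries (triangles), drawn from left to right as replicates 1, 2 and 3, with lines for group means. ADAMTS genes, their substrates and stromal markers are lower in each siRNA library, by 3.02-, 4.70- and 6.23-fold by group means, and the macrophage sum, most of it Lyz2, is higher by 2.13-fold (1.49-fold without Lyz2).

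Genes that act with the family were read from lists compiled by hand. Of 18 partners in maturation and trafficking 17 were tested, 9 (52.9%) were lower and 5 (29.4%) higher, against 29.8% and 14.7% of all genes (median log2 fold change -0.29). The largest changes on the log2(RPKM + 1) scale were in Pcolce, an enhancer of procollagen processing, from 48.3 ± 4.34 to 9.93 ± 4.04 RPKM (SD, n = 3) (adjusted p = 0.000121 from limma), and in Fbln1, a matrix protein that binds ADAMTS proteases, from 2.25 ± 0.467 to 0.524 ± 0.168 RPKM (SD, n = 3) (adjusted p = 0.000264). Pcsk6, a proprotein convertase, fell from 1.27 ± 0.267 to 0.217 ± 0.109 RPKM (SD, n = 3) (adjusted p = 0.000269 from limma), and Tspan33, a tetraspanin partner of Adam10, from 11.2 ± 0.561 to 7.11 ± 0.587 RPKM (SD, n = 3) (adjusted p = 0.000768). By ratio of group means Pcsk6 (5.88-fold) and Pcsk5 (5.82-fold, chosen after its values were seen) fell by more than Pcolce (4.86-fold), and Pcsk5 passed the minimum only through the control group. The 5 higher partners were named after their values were seen: the tetraspanins Tspan5, Tspan10, Tspan14 and Tspan17, which also pair with Adam10, and Lrp1, a receptor that clears secreted proteases. Tspan14 rose from 58.2 ± 3.74 to 73.3 ± 3.00 RPKM (SD, n = 3) and Tspan17 from 24.2 ± 1.26 to 31.4 ± 1.87 RPKM (SD, n = 3) (adjusted p = 0.00476 and 0.00364 from limma). Tspan5 rose from 3.89 ± 0.140 to 6.26 ± 0.0597 RPKM (SD, n = 3) and Tspan10 from 0.193 ± 0.170 to 0.627 ± 0.106 RPKM (SD, n = 3) (adjusted p = 0.000595 and 0.00888 from limma). Lrp1, the most abundant partner, rose from 232 ± 58.0 to 335 ± 25.2 RPKM (SD, n = 3) (adjusted p = 0.0214), a call lost in 8 of 17 alternatives, without control replicate 1 (0.0524) or 2 (0.0757) and without siRNA replicate 1 (0.0515), 2 (0.0506) or 3 (0.0615) among them, in a limma range of 0.000262 to 0.0757.

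Of 7 inhibitors 4 were tested, all 4 were lower and 0 were higher, where 29.8% and 14.7% of all genes were (limma; 0 were higher also at an unadjusted p under 0.05), with a median log2 fold change of -0.78. Timp3, the matrix-bound inhibitor of Adam17, Adamts4 and Adamts5, was at 176, 179 and 202 RPKM among controls against 29.1, 43.0 and 74.7 RPKM under Tet1/Tet2 siRNA. The siRNA libraries all lay under the controls, 3.79-fold lower by means (log2 fold change -2.00, SE 0.28, adjusted p = 0.000645 from limma). Reck, a membrane-anchored inhibitor, fell from 2.09 ± 0.456 to 0.707 ± 0.270 RPKM (SD, n = 3) (adjusted p = 0.00167 from limma), and Timp1 from 429 ± 76.0 to 264 ± 45.6 RPKM (SD, n = 3) (adjusted p = 0.00806). Timp2 fell from 187 ± 4.35 to 162 ± 8.08 RPKM (SD, n = 3) (adjusted p = 0.0283 from limma), and this call was lost with median-ratio scaling (0.305) and quantile normalization (0.106), and without control replicate 1 (0.0683) or 2 (0.0671) or siRNA replicate 1 (0.12) or 2 (0.0981), in a range of 0.0124 to 0.305. Timp4, A2m and Pzp were not tested.

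Of 27 substrates of ADAM sheddases 22 were tested, 7 (31.8%) were lower and 8 (36.4%) higher, against 29.8% and 14.7% of all genes (median log2 fold change 0.11). Of the 7 lower, 3 passed the minimum only through the control group, Areg, Nrg1 and Tnfsf11, which were chosen after their values were seen. Vcam1, an adhesion molecule, was at 16.7, 16.3 and 17.8 RPKM among controls against 57.3, 56.6 and 53.9 RPKM under Tet1/Tet2 siRNA. It rose in each siRNA library above all controls (3.30-fold by means, log2 fold change 1.67, SE 0.061, adjusted p = 9.98e-07 from limma). Cdh2, or N-cadherin, fell from 17.3 ± 1.44 to 5.09 ± 1.49 RPKM (SD, n = 3) and Mertk, a receptor by which macrophages take up dying cells, rose from 50.7 ± 2.64 to 102 ± 3.55 RPKM (SD, n = 3) (adjusted p = 0.00012 and 1.31e-05 from limma). Tnf, the substrate from which Adam17 has its other name, was at 7.88, 8.70 and 8.36 RPKM among controls against 3.23, 3.65 and 4.46 RPKM under Tet1/Tet2 siRNA. It fell in all 3 siRNA libraries, 2.20-fold by means (log2 fold change -0.97, SE 0.11, adjusted p = 0.000213 from limma), whereas Adam17 rose slightly. Csf1r and Mertk are on both this list and the macrophage list, 2 genes in all.

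Of 19 substrates of ADAMTS enzymes 14 were tested, 12 (85.7%) were lower and 1 (7.14%) higher, beside 29.8% and 14.7% of all genes (median log2 fold change -1.97). Vcan, which encodes the proteoglycan versican, was at 15.0, 17.3 and 22.6 RPKM among controls against 1.66, 1.98 and 2.87 RPKM under Tet1/Tet2 siRNA. The highest siRNA library held a fraction of the lowest control, 8.42-fold lower by means (log2 fold change -2.60, SE 0.18, adjusted p = 1.92e-05 from limma). The fibrillar collagen genes Col3a1, from 125 ± 31.3 to 14.1 ± 5.43 RPKM (SD, n = 3), Col1a1 and Col1a2, from 437 ± 96.4 to 76.4 ± 29.9 RPKM (SD, n = 3), fell as well (adjusted p = 5.52e-05, 0.000122 and 0.000131 from limma), and these 3 genes are also stromal markers. Vwf, the substrate of Adamts13 and also an endothelial marker, was the 1 gene of the list that rose, from 1.93 ± 0.199 to 6.10 ± 0.157 RPKM (SD, n = 3) (adjusted p = 1.96e-05 from limma), and it was named after its value was seen. Hapln1 stood at 0.001 RPKM in every library, and Acan, the gene of aggrecan, was below the minimum.

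Some members are neighbours in the genome (GENCODE M21 on GRCm38, all of them protein-coding genes). Adamts1 and Adamts5 lie on the same strand of chromosome 16 with 53059 bases between them, and both fell. On chromosome 8, Adam18, Adam3, Adam5, Adam32 and Adam9 follow each other. Adam9 was at 107 RPKM in the control group while Adam32, only 806 bases away, had at most 0.146 RPKM in any library, the highest value of a member not tested. Of the tested members, 8 share exon bases with another annotated gene, and the use of strand in counting is not given in the sources used here. Adam1a shares 63.7% of its exon bases with Gm42878 and 24.0% with Mapkapk5 on the same strand, so its value is uncertain. Opposite-strand genes cover 20.6% of Adam15 exon bases (4731419I09Rik), 9.2% of Adamts9 (A730049H05Rik), 8.3% of Adam19 (Gm16033) and 4.3% of Adam17 (Iah1). Near-identical copies such as Adam1a and Adam1b, Adam6a and Adam6b, or Adam26a and Adam26b could share reads, and their values are uncertain for that reason too.

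Promoters were read because Tet enzymes act on methylated cytosine in CG pairs; methylation was not measured in these libraries. RefSeq windows of 250 bases before to 50 after a gene start (GRCm38.p6) matched 31 of the 57 members with 33 windows, of which Adam19 had 3. All 5 members called higher had a window, but only 8 of the 16 called lower did. Adamts5, with the largest fall, was among those without. Taking for each gene the window with most CG pairs, the 5 higher genes held 11 to 32 pairs (median 29), the 8 lower genes 7 to 46 (median 28), the 3 genes not called 4 to 25 (median 6) and the 15 genes not tested 0 to 41 (median 1). Over all 32851 windows the median was 7, and 34.6% held at least 15 pairs. The letters TGTGGT or, on the other strand, ACCACA, which Runx factors bind, were in this window in 0 of the 5 higher, 0 of the 8 lower, 2 of the 3 not called and 3 of the 15 genes not tested. A further window of Adam19 held them too. Over all windows the share was 16.8%, a figure not limited to 1 window per gene, and no difference was tested. These letters cannot overlap a CG pair. A match describes the sequence and is not a site. Shown in full, with CG pairs in capitals, are the promoters of the N-propeptidases Adamts2 (41 pairs) and Adamts14 (44 pairs), which fell, of Adam10 (32 pairs), which rose, and of Adam8 (6 pairs), the most abundant member, which was not called. They lie at chr11:50601835-50602134 (+ strand), chr10:61273370-61273669 (- strand), chr9:70678732-70679031 (+ strand) and chr7:139992513-139992812 (- strand), and are written 5′ to 3′.
Adamts2: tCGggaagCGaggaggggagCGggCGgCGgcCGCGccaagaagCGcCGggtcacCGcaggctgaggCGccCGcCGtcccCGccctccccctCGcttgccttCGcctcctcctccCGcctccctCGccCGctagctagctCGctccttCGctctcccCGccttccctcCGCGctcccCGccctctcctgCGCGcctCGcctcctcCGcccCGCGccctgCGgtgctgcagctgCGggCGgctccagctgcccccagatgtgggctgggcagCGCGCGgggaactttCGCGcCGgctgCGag
Adamts14: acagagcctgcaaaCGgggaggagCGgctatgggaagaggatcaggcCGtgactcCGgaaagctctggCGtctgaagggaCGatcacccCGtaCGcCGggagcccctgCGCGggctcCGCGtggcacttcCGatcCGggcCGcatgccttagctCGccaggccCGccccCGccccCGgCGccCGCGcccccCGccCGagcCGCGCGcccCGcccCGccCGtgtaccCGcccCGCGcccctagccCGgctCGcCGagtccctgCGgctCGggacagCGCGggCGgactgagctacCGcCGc
Adam10: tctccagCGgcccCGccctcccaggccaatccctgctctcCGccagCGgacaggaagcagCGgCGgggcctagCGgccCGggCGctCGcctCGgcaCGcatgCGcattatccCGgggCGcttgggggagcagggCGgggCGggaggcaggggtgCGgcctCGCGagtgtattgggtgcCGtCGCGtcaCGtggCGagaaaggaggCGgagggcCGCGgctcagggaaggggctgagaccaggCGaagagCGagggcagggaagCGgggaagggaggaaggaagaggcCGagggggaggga
Adam8: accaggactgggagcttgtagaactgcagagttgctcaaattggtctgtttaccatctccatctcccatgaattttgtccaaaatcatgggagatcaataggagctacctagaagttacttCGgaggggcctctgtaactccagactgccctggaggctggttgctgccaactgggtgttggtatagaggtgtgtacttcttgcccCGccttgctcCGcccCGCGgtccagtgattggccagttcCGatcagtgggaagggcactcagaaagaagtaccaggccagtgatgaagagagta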

How the data were processed

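RNA-seq values of 6 libraries were used, 3 control and 3 siTet1/Tet2. The authors trimmed adaptors, mapped reads to GRCm38 with DNASTAR Lasergene and deposited RPKM per gene (FPKM in the methods); the annotation release and the use of strand are not given in the sources used here. A p-value column of the authors in the same table was not used. Of entries with the same symbol the one with the highest mean was kept. log2(RPKM + 1) was compared with limma 3.58.1 in R 4.3.3 (lmFit, eBayes with trend, Benjamini-Hochberg adjustment over 13266 genes), after a test on simulated data. Depth was estimated with Python 3.11.15 from genes with 1 transcript in GENCODE M21, and no count test was run. Reads per member were estimated with its longest transcript. Protein sequences were not used here. A marker value and an exon overlap are not reported here.

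The members, the gene lists, the cell type markers, the tests and the rule for named genes were chosen with earlier results of these data known. The rule named every tested member, with all 6 values where it was called and averaged at least 1 RPKM in either group, or averaged at least 5 RPKM. From each list of partners, inhibitors and substrates it took up to 4 called genes with the largest log2 fold change, and Tnf, Timp3 and Vcan; from each marker list, the most abundant gene and those at 0.001 RPKM.

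Replicate numbers are the same in both groups by the labels. Across genes, deviations from the group means correlated at 0.149 for replicate 1, 0.117 for 2 and 0.462 for 3. As each was over 0.1, an added fit with a replicate block took the numbers for pairs. Only the values support this pairing, and not in every library. Higher values than with the same number came from siRNA replicate 2 with control replicate 1 (0.332) and siRNA replicate 1 with control replicate 2 (0.205). Alternatives tried were 2 other pseudocounts (0.1 and 0.01), no filter, a filter at 1 RPKM, scaling to the same sum, median-ratio scaling, quantile normalization, eBayes without trend, the replicate block, summing entries with the same symbol and leaving out each library. The scaling to the same sum was planned with a sum of 1000000, which is over the deposited sums and so also lowers the weight of the pseudocount. A version at the mean of the deposited sums, which leaves that weight as it was, was added after the data were seen.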

Additional observations from a re-analysis of the deposited data

How the results depend on the processing

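Of 21 called members, 15 kept direction and call in every alternative that could be fitted, of 17, and the others are named in the report with their values. The replicate block changed no member's call and left 9 ADAMTS genes lower and 4 ADAM genes lower and 4 higher; over all genes it raised the called genes from 5905 to 6716. Filtering at 1 RPKM left 5 ADAMTS genes and 1 ADAMTSL gene lower, since fewer genes were tested. Of all 11068 genes tested there, 3353 were lower and 1793 higher. With libraries brought to the same sum, at 1000000 or at the mean of their sums, 2 ADAM genes and 0 ADAMTSL genes were higher, and the cause was not tested. The median log2 fold change of ADAM, ADAMTS and ADAMTSL genes was -0.178, -1.763 and -1.41 with a pseudocount of 0.1, -0.178, -2.048 and -1.685 with 0.01, and -0.163, -1.288 and -0.871 with the sum of 1000000. It was -0.100, -0.917 and -0.504 at the mean of the sums, an alternative added after the data were seen in which the pseudocount keeps its weight. It was -0.178, -1.257 and -0.682 when filtered at 1 RPKM and 0.008, -0.666 and -0.365 after quantile normalization. With no filter the ADAMTS and ADAMTSL medians were -0.050 and -0.206, over more genes near the lowest value. Leaving out 1 library gave medians of -0.165 to -0.008, -0.985 to -0.748 and -0.51 to -0.452, and counts of 3 to 5 lower and 3 to 4 higher ADAM, 9 lower ADAMTS, and 2 to 3 lower and 0 to 1 higher ADAMTSL genes. Over all genes those fits gave 3014 to 4134 lower and 1406 to 2016 higher of 13227 to 13301 tested. Signs turned only in members that were not called. Adam15 was 0.081 with median-ratio scaling and 0.015 after quantile normalization, where Adamts10 was 0.047 and 0.112 and Adam4, in the latter, 0.008. Leaving out 1 library gave -0.105 to 0.007 for Adamts10, -0.165 to 0.008 for Adam4 and -0.022 to 0.164 for Adam1a. The cause was not tested. All alternatives for the lists of partners, inhibitors, substrates and markers were added after the data were seen. Over them, lower and higher counts ran from 7 to 10 and 4 to 6 for partners, 3 to 4 and 0 to 0 for inhibitors, 4 to 8 and 6 to 9 for sheddase substrates, 12 to 14 and 1 to 1 for ADAMTS substrates, 10 to 11 and 0 to 0 for stromal markers and 1 to 1 and 7 to 10 for macrophage markers. The lowest sheddase count, 4, came with the filter at 1 RPKM and was the only one over 1.5 times from the reported count. Depth, known only as an estimate, limits members near 0.1 RPKM most.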
